A study of Homo sapiens with 9 samples.

Results

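The 39 glycolysis and hypoxia response genes described here were taken from a fixed list of gene symbols, and all 39 were found among the 29972 genes of the deposited expression table. They cover glucose and lactate transport, the 10 enzyme steps of glycolysis, lactate dehydrogenase, the oxygen sensing arm of the HIF pathway and a set of its common target genes. Of the 39, 37 passed the filter on low values and were tested. EGLN3 stayed under the filter, and CA9 was listed at 0 in all 9 libraries. The cells were H2030, a line from a human lung carcinoma of the non-small cell kind, grown in humidified air with carbon dioxide, and the labels name no exposure to low oxygen. Each of the 3 groups had 3 libraries, and each was transfected with siRNA at 20 nmol/L using Lipofectamine RNAiMAX. The siMENA11a group received a mix of 3 siRNAs against exon 11a of ENAH, the gene of the actin regulator hMENA. The siMENA group received the hMENA(t) pool (siGENOME SMARTpool Human ENAH), and the control group received the ON-TARGETplus non-targeting pool, a different reagent line. The time between transfection and RNA harvest is not given in the sources used here. Whether the libraries of 1 group stem from separate cultures is not said in the labels, so p-values measure only their spread, which may be technical.

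The series asks which programmes of the tumour cell depend on the hMENA isoforms, and ENAH itself was the check of the labels. ENAH stood at 46.7, 47.5 and 48.7 scaled TPM in the siMENA11a libraries, at 6.89, 7.30 and 7.48 in the siMENA libraries and at 43.6, 43.2 and 44.7 in the control libraries. The siMENA libraries lay far below the other two groups, and ENAH fell 5.74-fold there against control (log2 fold change -2.52 ± 0.038, limma adjusted p = 4.98e-10). In siMENA11a the gene sum was slightly higher than in control (log2 fold change 0.12 ± 0.038, adjusted p = 0.0247). The table sums all transcripts of a gene, so it does not check the loss of exon 11a. The annotated 63-base coding exon of ENAH that was taken as exon 11a from its length lies at chr1:225504991-225505053 on the minus strand of GRCh38 (GENCODE 29). It is shown because the siMENA11a mix was designed against it, and the capitals mark 2 overlapping words of 7 bases that are followed in the 3' UTRs below.
ENAH exon: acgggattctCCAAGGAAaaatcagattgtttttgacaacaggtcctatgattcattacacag

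Glycolysis turns glucose into pyruvate, and lactate dehydrogenase and the lactate carriers let cells with high glucose use dispose of that pyruvate as lactate. When oxygen is scarce, the HIF alpha subunits escape hydroxylation by the EGLN enzymes and destruction through VHL, pair with an ARNT partner and bind short DNA elements at genes for glucose uptake, glycolysis, vessel growth, mitophagy and collagen modification. HIF1A is controlled mainly at the protein level, so its mRNA is no measure of HIF activity, and lung tumours are known for high glucose uptake through these genes. Because cells in a culture can differ in number and in state, fewer cells of a kind and less RNA per cell cannot be told apart in these bulk libraries.

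Values are TPM, a length-corrected share of a library's transcripts, divided by a size factor per library, and are called scaled TPM. Fold changes are log2 differences of scaled TPM + 0.5 with their standard errors from limma, which understate the change of low genes. A gene was called where its p, adjusted over the 13498 genes tested, was under 0.05. Size factors ran from 0.886 to 0.973 in siMENA11a, from 1.06 to 1.09 in siMENA and from 0.995 to 1.04 in control, and sequencing depth is unknown because TPM does not keep it. Small and structured RNAs took 63.1% to 65.4% of TPM in siMENA11a, 58.9% to 60.6% in siMENA and 57.4% to 59.4% in control. The 39 genes together took 0.837% to 0.878% in siMENA11a, 0.784% to 0.847% in siMENA and 0.938% to 0.996% in control. Across genes, which are not independent replicates, Pearson correlations of log values were 0.978 to 0.985 in the 9 within-group pairs and 0.951 to 0.971 in the 27 between-group pairs. Of 6 epithelial markers, KRT18 and KRT8 carried most of the sum (315 to 329 scaled TPM in siMENA11a, 312 to 331 in siMENA and 356 to 368 in control), while CDH1 and KRT19 averaged under 0.5 in every group. By log2 fold change against control, KRT18 fell in siMENA11a (-0.25) and siMENA (-0.18), EPCAM rose in both (0.80 and 0.88), and KRT7 rose in siMENA11a (0.65) and fell in siMENA (-1.10). The sum of 4 leukocyte markers was 124 to 129 in siMENA11a, 40.4 to 48.8 in siMENA and 96.1 to 104 in control. Nearly all of it was CD68, a lysosomal protein that many tumour cells make, and CD3E was at 0 throughout. The 4 fibroblast markers summed to 6.29 to 6.59 in siMENA11a, 13.9 to 15.7 in siMENA and 7.40 to 8.36 in control, almost wholly COL1A1, and the 4 endothelial markers to at most 1.18. The part of these markers in the results was not tested.

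With the pool against ENAH the glycolysis and hypoxia genes were mostly lower than in control. With the exon 11a mix they were split between higher and lower. In siMENA against control, 25 of the 37 tested genes fell, 3 rose and 9 were not called, with a median log2 fold change of -0.30 over the 37. Over all genes tested, 49.4% were called in that comparison (23.7% higher and 25.8% lower) with a median of 0.01. In siMENA11a against control, 14 of the 37 rose, 9 fell and 14 were not called, with a median of 0.04. All genes tested gave 55.6% called there (27.9% higher and 27.7% lower), also with a median of 0.01, so the share of higher genes among the 37 was above that background and the share of lower genes near it. Set directly against siMENA, siMENA11a had 27 of the 37 higher and 3 lower (median 0.32), against 58.7% of all genes called (29.5% higher and 29.2% lower). A change of at least 2-fold, with 0.5 added to all values, was rare. In siMENA11a against control 0 of the 37 reached it. The means of the low gene CA12, without the added 0.5, did differ by over 2-fold there (0.732 in siMENA11a and 1.62 in control). In siMENA against control 1 did, PGAM1. In the direct comparison PGAM1 and SLC2A3 were over 2-fold higher and CA12 was over 2-fold lower. Both knockdown comparisons use the same 3 control libraries, so their values stand side by side and are not independent.

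The scaling of the libraries moves these counts. In TPM as deposited, the median of all genes moved to -0.11 for siMENA11a against control, 0.09 for siMENA against control and -0.20 for siMENA11a against siMENA. The higher genes were then 28.6%, 63.4% and 24.3% of all called genes in those comparisons, against 50.2%, 47.9% and 50.3% with size factors. On TPM rescaled after small and structured RNAs were taken out, they were 63.6%, 69.5% and 45.5%. Of the 37, TPM as deposited gave 6 higher and 15 lower in siMENA11a against control, 5 higher and 20 lower in siMENA against control, and 17 higher and 10 lower in siMENA11a against siMENA. Rescaling without the small RNAs gave 18 higher and 6 lower, 5 higher and 19 lower, and 25 higher and 5 lower. Under each of these scalings, more of the 37 were lower than higher in siMENA against control, and more were higher than lower in siMENA11a than in siMENA. In siMENA11a against control the balance depended on the scaling. Calls that held under every alternative in which the gene was tested, leaving out each library included, numbered 6 of 14 higher and 6 of 9 lower in siMENA11a against control, 1 of 3 higher and 19 of 25 lower in siMENA against control, and 17 of 27 higher and 3 of 3 lower in the direct comparison. They are called stable calls from here on.

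**Figure D1:**
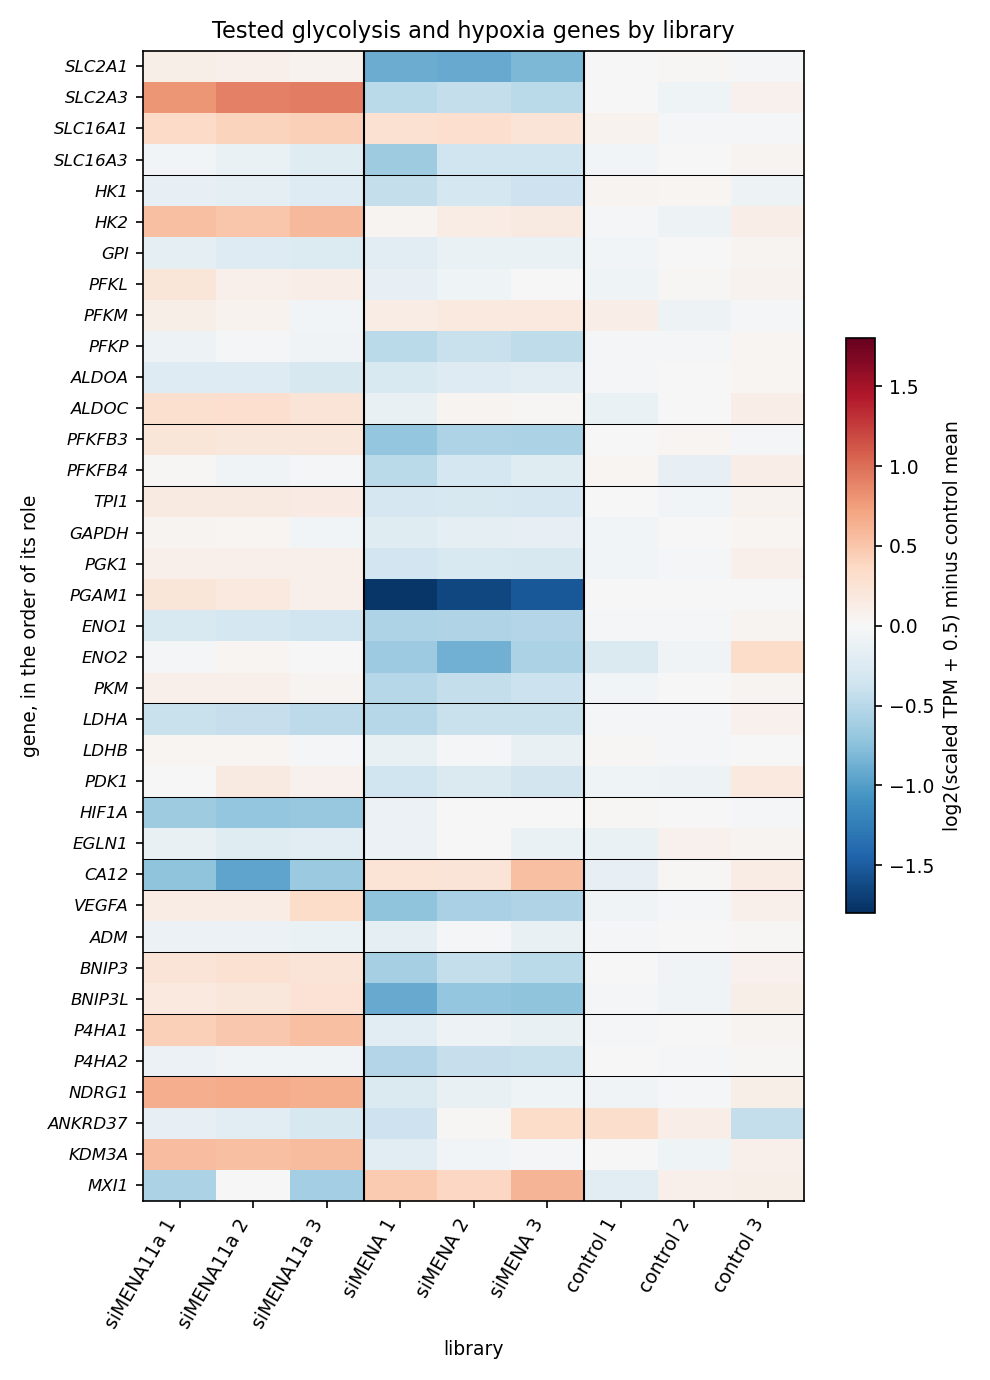
Each cell shows log2(scaled TPM + 0.5) of 1 of the 37 tested genes in 1 library minus the mean of the 3 control libraries, with genes in the order of their roles and libraries in columns. The siMENA columns are mostly blue, PGAM1 the darkest, while the siMENA11a columns mix red rows such as SLC2A3, NDRG1, KDM3A and HK2 with blue rows such as HIF1A, CA12, LDHA and ENO1.

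**Figure D2:**
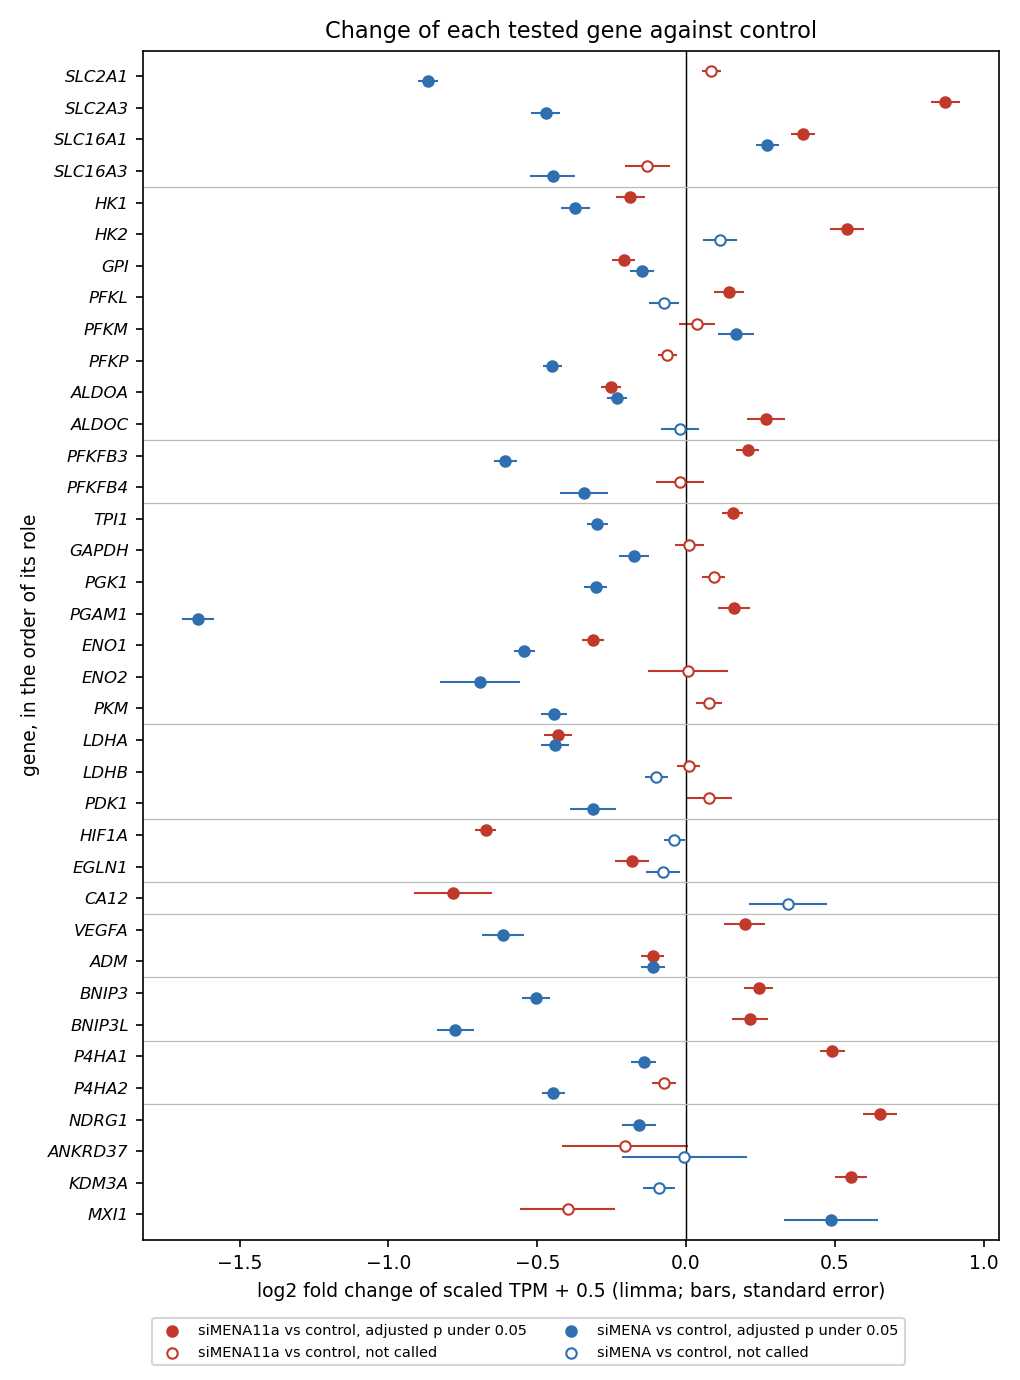
Points are log2 fold changes of each tested gene against control in siMENA11a (red) and siMENA (blue), with bars for the standard error, filled where the limma adjusted p was under 0.05. Blue points lie left of 0 for 25 called genes, while red points spread to both sides, with 14 called higher and 9 called lower.

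The glucose carriers differed between the knockdowns. SLC2A1, which encodes the widely used glucose transporter GLUT1, stood at 56.4, 56.2 and 55.0 scaled TPM in siMENA11a, 28.1, 28.0 and 29.8 in siMENA and 52.9, 53.3 and 51.8 in control. The 3 siMENA libraries lay well below the others and did not overlap them. SLC2A1 fell 1.82-fold in siMENA against control (log2 -0.87 ± 0.033, limma adjusted p = 1.60e-07), and was not called in siMENA11a against control (0.09 ± 0.033, adjusted p = 0.0515). That siMENA11a value was called at 0.17 without small RNAs in the scaling, at 0.15 under quantile normalisation, and with pseudocount 1, with no filter or with the filter at 5, and turned to -0.05 in TPM as deposited (not called). SLC2A3, the gene of the high-affinity transporter GLUT3, stood at 54.0, 58.7 and 59.1 in siMENA11a, 22.0, 22.8 and 22.0 in siMENA and 31.2, 29.3 and 32.7 in control. Its groups were fully apart, siMENA11a highest and siMENA lowest. It rose 1.83-fold in siMENA11a (log2 0.87 ± 0.049, adjusted p = 8.03e-07) and fell in siMENA (-0.47 ± 0.049, adjusted p = 4.77e-05). Directly compared, siMENA11a was 2.54-fold above siMENA, the second largest excess of siMENA11a over siMENA among the 37 after PGAM1. These calls of SLC2A1 in siMENA and of SLC2A3 were stable.

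The lactate carriers parted from each other. SLC16A1, which encodes the lactate and pyruvate carrier MCT1, stood at 28.7, 29.7 and 30.4 in siMENA11a, 27.3, 27.9 and 26.4 in siMENA and 23.3, 21.9 and 22.1 in control. It rose in both knockdowns (log2 0.39 ± 0.039 in siMENA11a and 0.27 ± 0.039 in siMENA, limma adjusted p = 2.65e-05 and 0.000345), and it was the one stable rise of siMENA against control. The called difference between the knockdowns (0.12) changed sign in TPM as deposited (-0.0938, not called) and was lost under the other 2 scalings and without siMENA11a library 2 or 3 or siMENA library 3 (0.10 to 0.12). SLC16A3, the gene of the lactate exporter MCT4, stood at 21.3, 20.3 and 19.0 in siMENA11a, 14.1, 17.2 and 17.1 in siMENA and 21.4, 22.1 and 22.9 in control. Only its siMENA change was called against control (log2 -0.45 ± 0.076, adjusted p = 0.000996). The siMENA11a value of -0.13 was not called, although TPM as deposited gave a call at -0.26. An exon of SLC16A3 overlaps CSNK1D on the opposite strand in GENCODE 29, as 20 of the 39 genes overlap an opposite-strand exon and 9 a same-strand one, and whether the counting used strand is not given in the sources used here.

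Among the enzymes of the preparatory steps, which spend ATP to split glucose into triose phosphates, 3 of 8 rose and 3 fell in siMENA11a, and 1 rose and 4 fell in siMENA. Of all tested genes, 27.9% rose and 27.7% fell in siMENA11a, and 23.7% rose and 25.8% fell in siMENA. Hexokinase traps glucose in the cell. Its inducible form HK2 stood at 20.4, 19.9 and 21.2 scaled TPM in siMENA11a, 14.5, 15.3 and 15.6 in siMENA and 13.6, 13.1 and 15.2 in control, with every siMENA11a library above every other library. HK2 rose 1.46-fold in siMENA11a (log2 0.54 ± 0.058, limma adjusted p = 4.28e-05, a stable call), while the siMENA value of 0.11 ± 0.058 was not called. Without control library 3 it was called at 0.18, in TPM as deposited at 0.20 and without small RNAs in the scaling at 0.23. HK1, the constitutive form, averaged 33.7 ± 0.872 in siMENA11a, 29.6 ± 1.25 in siMENA and 38.4 ± 2.12 in control (SD, n = 3 each). HK1 fell in siMENA (-0.37 ± 0.048, stable) and by less in siMENA11a (-0.19 ± 0.048), a call that ended when small RNAs were taken out of the scaling (-0.10). An overlap with a pseudogene, RPS15AP28, lies on the opposite strand of HK1.

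GPI, which converts glucose phosphate to fructose phosphate, averaged 156 ± 5.24 in siMENA11a, 162 ± 5.83 in siMENA and 180.0 ± 6.09 in control. It fell in siMENA11a (log2 -0.21 ± 0.040, a stable call) and in siMENA (-0.15 ± 0.040), where the call ended in TPM as deposited (-0.06) and without small RNAs in the scaling (-0.03), and the sign turned under quantile normalisation (0.02). ALDOA, the main aldolase, stood at 588, 589 and 565 in siMENA11a, 574, 590.4 and 603 in siMENA and 681, 686 and 709 in control. Both knockdowns lay below control and overlapped each other. ALDOA fell in both (log2 -0.25 ± 0.035 in siMENA11a and -0.23 ± 0.035 in siMENA, limma adjusted p = 0.00022 and 0.000464, both stable), and the direct difference was -0.02 ± 0.035 (adjusted p = 0.644). In TPM as deposited the falls were -0.39 and -0.15, and the direct difference was called at -0.24. ALDOC, a minor aldolase here, averaged 46.6 ± 1.21 in siMENA11a, 38.0 ± 2.50 in siMENA and 38.6 ± 3.27 in control. It rose in siMENA11a (log2 0.27 ± 0.065), but not past the threshold in TPM as deposited (0.14).

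Phosphofructokinase commits sugar to glycolysis, and its platelet type PFKP made up most of its mRNA. PFKP stood at 241, 249 and 245 scaled TPM in siMENA11a, 183, 193 and 186 in siMENA and 252, 253 and 263 in control. It fell 1.37-fold in siMENA (log2 -0.45 ± 0.032, limma adjusted p = 4.20e-06, stable), and its siMENA11a value of -0.06 ± 0.032 was not called, with every siMENA11a library still below every control library. In TPM as deposited it was called at -0.20, and without small RNAs in the scaling and under quantile normalisation it was 0.02 and 0.05 (not called). The liver type PFKL averaged 38.9 ± 1.68 in siMENA11a, 33.3 ± 1.63 in siMENA and 35.1 ± 1.68 in control, and the muscle type PFKM averaged 15.1 ± 0.878, 16.6 ± 0.285 and 14.8 ± 1.15 in the same order. The small rise of PFKL in siMENA11a (0.14) ended in TPM as deposited (0.012) and without control library 1 or 2 or siMENA11a library 1 or 3 (0.11 to 0.16). That of PFKM in siMENA (0.17) ended with a replicate block and without control library 2 or 3 or any 1 of the siMENA libraries (0.12 to 0.18). PFKFB3 and PFKFB4 make the fructose bisphosphate that activates phosphofructokinase. PFKFB3 stood at 96.8, 96.3 and 96.4 in siMENA11a, 51.3, 56.6 and 56.2 in siMENA and 83.6, 85.2 and 81.8 in control, with no overlap between groups. It fell 1.52-fold in siMENA (log2 -0.61 ± 0.039, adjusted p = 2.54e-06, stable) and was 1.76-fold higher in siMENA11a than in siMENA (stable). Its rise in siMENA11a against control (0.21 ± 0.039) ended in TPM as deposited (0.07). PFKFB4 averaged 7.90 ± 0.208 in siMENA11a, 6.23 ± 0.611 in siMENA and 8.04 ± 0.761 in control and fell in siMENA (log2 -0.34 ± 0.082, stable).

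The genes from triosephosphate isomerase to pyruvate kinase serve the steps from triose phosphates to pyruvate, where ATP is gained. All 7 of them fell in siMENA against control (median log2 -0.44), and all 7 were higher in siMENA11a than in siMENA (median 0.45). In siMENA11a against control 2 rose, 1 fell and 4 were not called. Of all tested genes, 25.8% were called lower in siMENA against control and 29.5% higher in siMENA11a than in siMENA. In siMENA11a against control 27.9% were higher and 27.7% lower. The fall of GAPDH in siMENA was not stable, nor were the direct differences of GAPDH and ENO1. The direct difference of GAPDH turned to -0.03 in TPM as deposited and to -0.09 under quantile normalisation (neither called). PGAM1, phosphoglycerate mutase, stood at 467, 454 and 428 scaled TPM in siMENA11a, 119, 128 and 139 in siMENA and 402, 403 and 400.3 in control. The 3 siMENA libraries averaged 0.32 of the control mean and lay apart from all others. PGAM1 fell 3.12-fold in siMENA (log2 -1.64 ± 0.053, limma adjusted p = 6.47e-08, stable), which placed it 41st from the lowest of the 13498 genes tested. Its rise in siMENA11a (0.16 ± 0.053, adjusted p = 0.0264) ended in TPM as deposited (0.03), with the replicate block (adjusted p = 0.0505) and without any 1 control library or siMENA11a library 1 or 2 (0.13 to 0.16). PGAM4, a near-identical copy whose reads could be split with PGAM1, averaged 1.22 ± 0.291 in siMENA11a, 0.289 ± 0.113 in siMENA and 0.933 ± 0.0775 in control.

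ENO1, the main enolase, stood at 851, 830.2 and 805 in siMENA11a, 699, 707 and 712 in siMENA and 1010.2, 1016 and 1062 in control. Its groups did not overlap, and it was the one of these 7 that fell in both knockdowns (log2 -0.31 ± 0.036 in siMENA11a and -0.54 ± 0.036 in siMENA, limma adjusted p = 6.70e-05 and 2.74e-06, both stable). The smaller loss in siMENA11a (direct difference 0.23 ± 0.036) was not called in TPM as deposited (0.01) or under quantile normalisation (0.04). ENO2, the neuron-type enolase, stood at 7.21, 7.51 and 7.41 in siMENA11a, 4.49, 3.82 and 4.78 in siMENA and 6.03, 6.98 and 9.35 in control, with a wide spread in control. ENO2 fell in siMENA (log2 -0.69 ± 0.13, adjusted p = 0.00213, stable). PKM, pyruvate kinase, stood at 934, 938 and 912 in siMENA11a, 614, 653 and 676 in siMENA and 853, 878 and 910.3 in control. It fell 1.36-fold in siMENA (log2 -0.44 ± 0.043, adjusted p = 3.12e-05, stable), and its siMENA11a value of 0.08 ± 0.043 was not called, but was at 0.16 without small RNAs in the scaling, and was -0.06 in TPM as deposited (not called). The table sums the PKM isoforms, so the splice choice between them is not measured.

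The remaining genes of these steps moved by less. TPI1, triosephosphate isomerase, stood at 657, 656 and 649 in siMENA11a, 476, 482 and 474 in siMENA and 585, 565 and 612 in control. TPI1 fell in siMENA (log2 -0.30 ± 0.035, limma adjusted p = 9.89e-05, stable) and rose in siMENA11a (0.16 ± 0.035), where the call ended in TPM as deposited (0.02). PGK1, phosphoglycerate kinase, stood at 183, 182 and 182 in siMENA11a, 134, 141 and 140.2 in siMENA and 165, 167 and 182 in control, and fell in siMENA (log2 -0.30 ± 0.039, adjusted p = 0.000195, stable). In siMENA11a it was not called (0.09 ± 0.039) except without control library 3 (0.14), under quantile normalisation (0.14) or without small RNAs in the scaling (0.18). GAPDH, often used to normalise other genes, averaged 3190.5 ± 121 in siMENA11a, 2805 ± 61.3 in siMENA and 3167 ± 97.5 in control. It fell in siMENA (log2 -0.17 ± 0.049, adjusted p = 0.0151), a call that ended in TPM as deposited (-0.09), without small RNAs in the scaling (-0.05), with no filter and without control library 3 (-0.15). Its siMENA11a value of 0.01 turned to -0.12 in TPM as deposited and to -0.42 under quantile normalisation, both called.

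Summing the isozymes found among the 39 genes gave an mRNA level for each step. Isozymes outside the 39 were left out of these sums and of the ratios below. One of them was HKDC1, a hexokinase relative, which averaged 28.9 in siMENA11a, 12.8 in siMENA and 17.3 in control. Over glycolysis and lactate dehydrogenase together, 17 genes summed to 8581 ± 230.4 scaled TPM in siMENA11a, 7149 ± 181 in siMENA and 8999 ± 253 in control (SD, n = 3 each). These sums rest on the size factors. As a share of TPM as deposited, the 39 genes overlapped between siMENA11a (0.837% to 0.878%) and siMENA (0.784% to 0.847%). Both groups lay below control (0.938% to 0.996%). As ratios of means to control, siMENA ran from 0.32 at phosphoglycerate mutase to 0.90 at phosphoglucose isomerase, so all 11 steps lay below control there with size factors. Under quantile normalisation GPI, the only gene of its step, was at log2 0.02 in siMENA against control (not called). In siMENA11a the ratios ran from 0.81 at enolase and lactate dehydrogenase to 1.12 at phosphoglycerate mutase. Aldolase was at 0.86 of control in both knockdowns. Phosphofructokinase was at 0.98 in siMENA11a and 0.78 in siMENA, and pyruvate kinase at 1.05 in siMENA11a and 0.74 in siMENA. Transcript levels of a step say nothing of flux, which was not measured.

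**Figure D3:**
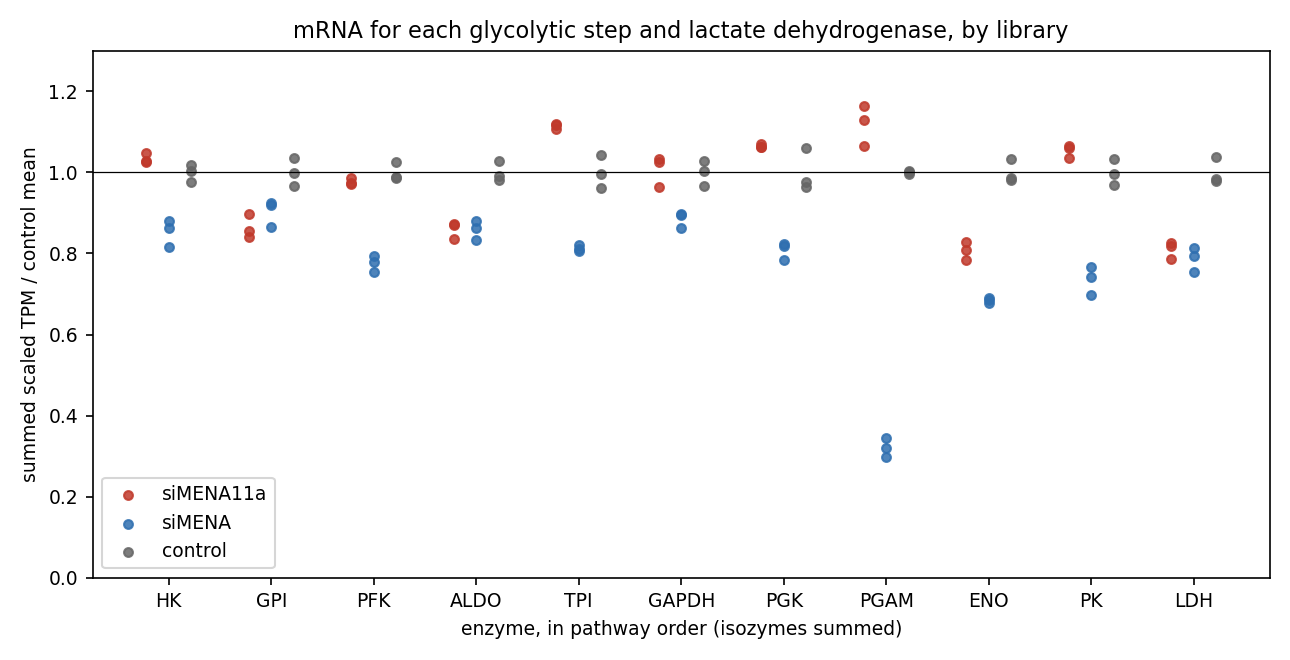
Each point is 1 library, and its height is the summed scaled TPM of the isozymes of a glycolytic step, or of lactate dehydrogenase, divided by the mean of the 3 control libraries. Points of siMENA lie under 1 at each of the 11 steps and lowest at PGAM (mean ratio 0.32), while points of siMENA11a lie on both sides of 1.

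Lactate dehydrogenase A, the subunit that favours making lactate from pyruvate, was lower in both knockdowns. LDHA stood at 829.9, 822 and 794 scaled TPM in siMENA11a, 767, 832 and 829 in siMENA and 1067, 1073 and 1158 in control. The knockdown groups overlapped each other and lay below all 3 control libraries. LDHA fell 1.35-fold in siMENA11a (log2 -0.43 ± 0.047, limma adjusted p = 5.21e-05) and 1.36-fold in siMENA (-0.44 ± 0.047, adjusted p = 5.70e-05), both stable calls. The direct difference of 0.01 ± 0.047 was not called with size factors, and was called at -0.21 in TPM as deposited and at -0.19 under quantile normalisation. LDHB, the subunit that favours the return to pyruvate, averaged 389 ± 11.4 in siMENA11a, 361 ± 14.6 in siMENA and 386 ± 6.74 in control, and was called in neither knockdown against control (log2 0.01 ± 0.038 in siMENA11a and -0.10 ± 0.038 in siMENA). The siMENA11a value was called at -0.12 in TPM as deposited, at 0.09 without small RNAs in the scaling and at 0.17 under quantile normalisation. The siMENA value was called at 0.12 under quantile normalisation, at -0.13 without siMENA library 2, and with the filter at 5 or robust eBayes. Its called difference between the knockdowns (0.11) turned to a call of -0.11 in TPM as deposited. That call was lost without small RNAs in the scaling (0.07), under quantile normalisation (0.05) and in a fit of only the 2 groups compared (0.11). It was also lost without siMENA11a library 1 or 2 or siMENA library 1 or 3 (0.09 to 0.10). PDK1, a kinase that switches off pyruvate dehydrogenase, averaged 11.5 ± 0.744 in siMENA11a, 8.64 ± 0.312 in siMENA and 10.9 ± 1.24 in control. PDK1 fell in siMENA (log2 -0.31 ± 0.078), a call that ended when small RNAs were taken out of the scaling (-0.20). Its siMENA11a value of 0.08 was called only without control library 3 (0.16).

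HIF1A mRNA was lowest in siMENA11a. HIF1A, the gene of the oxygen-regulated HIF subunit, stood at 74.3, 71.0 and 71.6 scaled TPM in siMENA11a, 107, 115 and 115 in siMENA and 117, 116 and 114 in control. The siMENA11a libraries lay below all others, while siMENA and control overlapped. HIF1A fell 1.59-fold in siMENA11a (log2 -0.67 ± 0.036, limma adjusted p = 5.90e-07), and siMENA11a was lower than siMENA by a like amount (-0.63 ± 0.036, adjusted p = 5.36e-07), both stable. In siMENA the value was -0.04 ± 0.036, not called, and it changed sign under other scalings (0.04 in TPM as deposited, 0.10 and called under quantile normalisation). HIF1A-AS2, an antisense RNA at this locus, averaged 4.01 ± 0.434 in siMENA11a, 2.31 ± 0.772 in siMENA and 3.84 ± 0.489 in control, far under HIF1A. EGLN1, the main HIF prolyl hydroxylase, averaged 16.0 ± 0.478 in siMENA11a, 17.2 ± 0.800 in siMENA and 18.2 ± 1.33 in control. Its fall in siMENA11a (log2 -0.18 ± 0.057) ended when small RNAs were taken out of the scaling (-0.10) and without control library 2 or 3 or siMENA11a library 2 or 3 (-0.17 to -0.14). EGLN3, a hydroxylase that HIF itself induces, averaged 0.224 ± 0.108 scaled TPM in siMENA11a, 0.212 ± 0.0719 in siMENA and 0.177 ± 0.0667 in control and was not tested.

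Of the HIF target genes outside glycolysis, 11 of 12 were tested. In siMENA11a 6 rose and 2 fell (median log2 0.20). In siMENA 1 rose and 7 fell (median -0.14). In siMENA11a against siMENA 7 were higher and 2 lower (median 0.63). The shares of all tested genes called higher and lower were 27.9% and 27.7%, 23.7% and 25.8%, and 29.5% and 29.2% in the same order of comparisons. The largest rise in siMENA11a was NDRG1, a stress-responsive gene, at 33.1, 33.4 and 32.8 scaled TPM in siMENA11a, 17.3, 19.0 and 19.8 in siMENA and 19.9, 20.4 and 22.4 in control. Its siMENA11a libraries stood clear of all others. NDRG1 rose 1.57-fold in siMENA11a (log2 0.65 ± 0.057, limma adjusted p = 1.18e-05, stable), while its call in siMENA (-0.16) ended under each of the 3 other scalings and without control library 2 or 3 or siMENA library 1 or 2 (-0.18 to -0.10). KDM3A, a histone demethylase gene, stood at 23.4, 23.2 and 23.7 in siMENA11a, 13.8, 15.2 and 15.4 in siMENA and 15.7, 14.9 and 16.8 in control. It rose 1.47-fold in siMENA11a (log2 0.56 ± 0.054, adjusted p = 2.23e-05, stable) and was not called in siMENA (-0.09 ± 0.054).

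P4HA1 and P4HA2 encode catalytic subunits of collagen prolyl hydroxylase, and they took different courses. P4HA1 stood at 41.3, 43.0 and 44.8 in siMENA11a, 26.4, 28.5 and 27.7 in siMENA and 29.7, 30.3 and 31.4 in control, and rose 1.41-fold in siMENA11a (log2 0.49 ± 0.042, limma adjusted p = 1.07e-05, stable). Its small fall in siMENA (-0.14) ended under each of the 3 other scalings and without control library 3 (-0.12) or siMENA library 1 (-0.11). P4HA2 stood at 26.4, 27.3 and 27.2 in siMENA11a, 19.6, 21.2 and 21.3 in siMENA and 28.6, 27.8 and 28.8 in control. It fell in siMENA (log2 -0.45 ± 0.039, adjusted p = 1.71e-05, stable) and was not called in siMENA11a (-0.07 ± 0.039), except in TPM as deposited (-0.20).

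The mitophagy receptors and VEGFA were lowest in siMENA. BNIP3L stood at 53.6, 54.5 and 57.0 scaled TPM in siMENA11a, 25.1, 29.03 and 28.4 in siMENA and 46.0, 45.4 and 50.8 in control, and its relative BNIP3 stood at 85.5, 88.4 and 85.4, 48.2, 53.9 and 51.9 and 72.6, 69.5 and 76.8 in the same order of groups. Both genes had siMENA11a highest and siMENA lowest with no overlap. BNIP3L fell 1.71-fold in siMENA (log2 -0.77 ± 0.061, limma adjusted p = 8.91e-06) and BNIP3 1.42-fold (-0.50 ± 0.048, adjusted p = 2.86e-05), both stable. Their rises in siMENA11a (0.21 and 0.24) ended in TPM as deposited (0.083 and 0.11), and that of BNIP3L also without control library 2 (0.18). VEGFA, the main vessel growth factor, stood at 38.6, 38.4 and 44.0 in siMENA11a, 21.0, 23.2 and 24.0 in siMENA and 33.4, 34.5 and 37.4 in control. It fell 1.53-fold in siMENA (log2 -0.62 ± 0.069, adjusted p = 7.79e-05, stable). Its rise in siMENA11a (0.20) ended in TPM as deposited (0.07) and without control library 1 or 2 or siMENA11a library 3 (0.14 to 0.18). ADM, the gene of the vasodilator peptide adrenomedullin, averaged 23.2 ± 0.198 in siMENA11a, 23.3 ± 1.18 in siMENA and 25.2 ± 0.424 in control, and its small falls were -0.11 in both. The siMENA11a call held in TPM as deposited (-0.24) and ended without small RNAs in the scaling (-0.03), under quantile normalisation (-0.07) and without any 1 siMENA11a library or control library 2 or 3. The siMENA call ended under each of the 3 other scalings and without any 1 control library or siMENA library 1 or 3. Over these left-out libraries the values were -0.12 to -0.09.

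**Figure D4:**
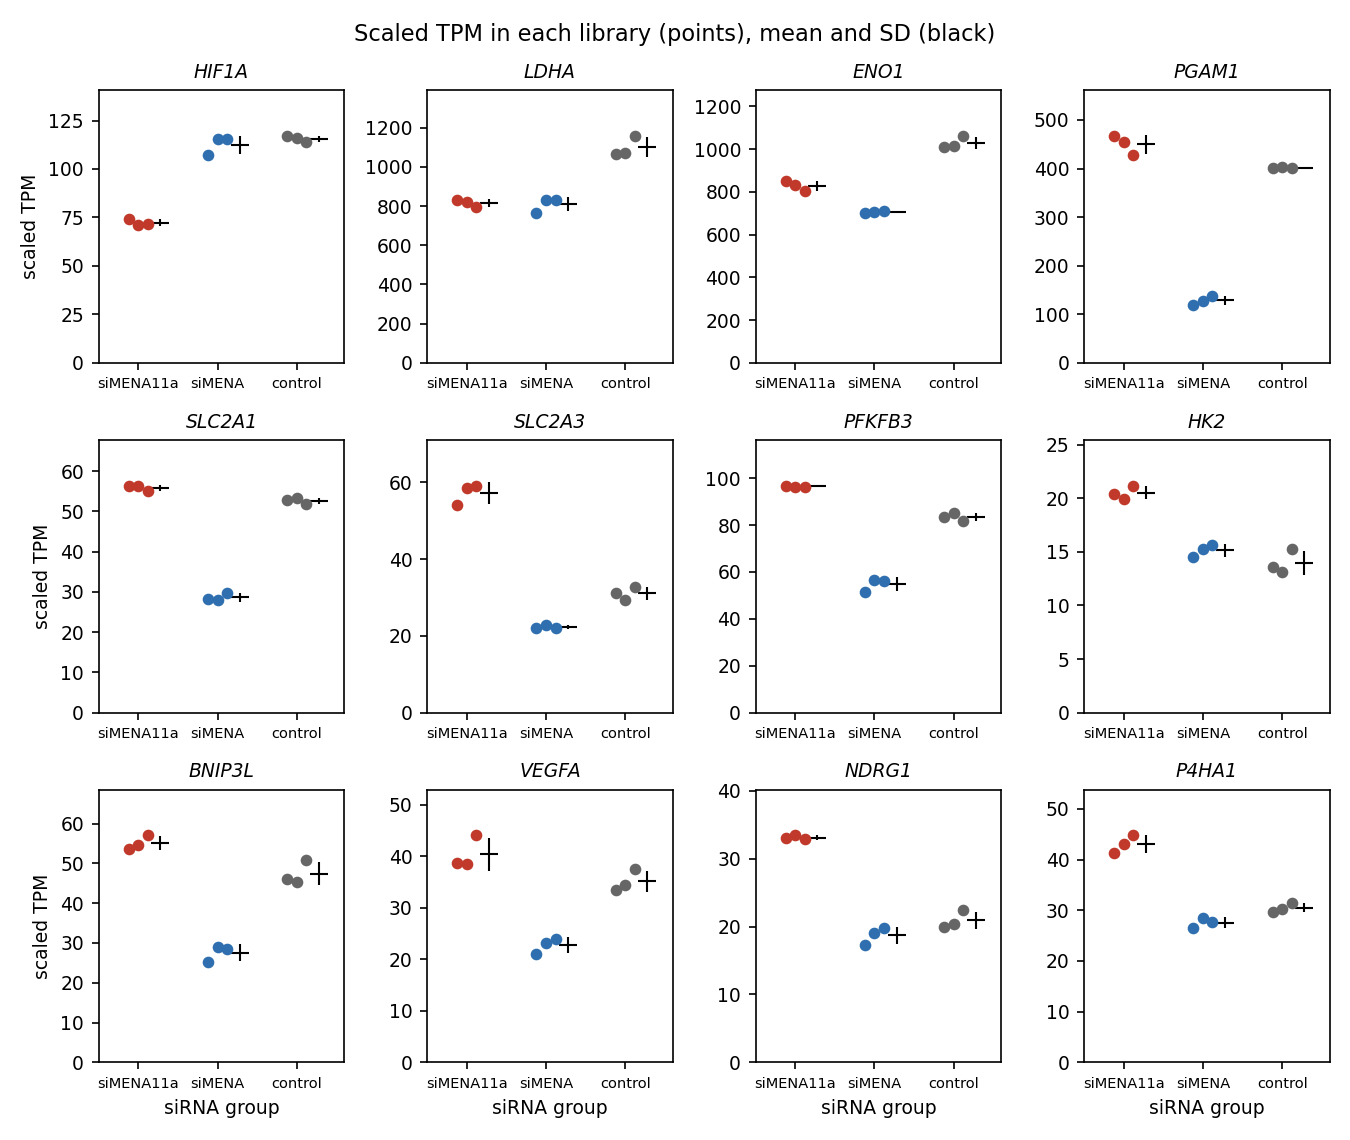
Points are the scaled TPM of 12 genes in each of the 9 libraries, with the mean and SD of each group in black, on axes that start at 0. HIF1A is low in siMENA11a alone, LDHA is low in both knockdowns, PGAM1 and SLC2A1 are low in siMENA alone, and NDRG1, HK2 and P4HA1 are highest in siMENA11a.

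CA12 and MXI1, both at low levels, were lower in siMENA11a than in siMENA. CA12, a carbonic anhydrase that handles acid outside the cell, stood at 0.779, 0.594 and 0.822 scaled TPM in siMENA11a, 2.00, 1.99 and 2.58 in siMENA and 1.40, 1.63 and 1.82 in control. It fell in siMENA11a (log2 -0.78 ± 0.13, limma adjusted p = 0.000736) and was 2.18-fold lower there than in siMENA (-1.12 ± 0.13), both stable, while its siMENA value of 0.34 ± 0.13 was not called. It was called at 0.41 without control library 3 or in TPM as deposited, at 0.44 without small RNAs in the scaling, and with pseudocount 1, a replicate block, robust eBayes or eBayes without a trend. MXI1, an antagonist of MYC, stood at 1.62, 2.62 and 1.55 in siMENA11a, 3.85, 3.58 and 4.33 in siMENA and 2.26, 2.83 and 2.87 in control. It was lower in siMENA11a than in siMENA (log2 -0.88 ± 0.16, adjusted p = 0.000985, stable). Against control the siMENA11a value of -0.40 was not called, but it was in TPM as deposited (-0.50), under quantile normalisation (-0.49), with robust eBayes, and without control library 1 (-0.49) or siMENA11a library 2 (-0.59). Its rise in siMENA against control (0.49) ended with no filter and without control library 1 or siMENA library 1 or 3 (0.39 to 0.50). ANKRD37, a short ankyrin repeat protein gene, averaged 2.10 ± 0.128 in siMENA11a, 2.54 ± 0.735 in siMENA and 2.56 ± 0.766 in control and was called in no comparison. CA9, a carbonic anhydrase widely used as a hypoxia marker, was listed at 0 in each library.

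HIF binds the core ACGTG or GCGTG, and the promoter windows of these genes were searched for both words on both strands, a CACGTG being counted once on each strand. RefSeq windows on GRCh38.p14 run from 250 bases before to 50 bases after a transcript start and were in the table for 34 of the 39 genes. Of the 34, 31 (91.2%) held at least 1 core in a window, against 70.8% of the 9462 tested genes with a window, and 20 (58.8%) held ACGTG, against 32.5%. Genes with more windows have more chances of a match, and by window the core stood in 67.2% of the 64 windows of these genes and in 48.4% of all 35116 windows. Those 35116 windows include genes that were not tested. Over all 27305 genes with a window 52.4% held a core, against the 70.8% of tested genes. The window shares therefore compare unlike sets of genes. The windows with 6 cores each are shown, with the cores in capitals, since LDHA, HK2 and BNIP3 took 3 different courses: lower in both knockdowns, higher in siMENA11a, and lowest in siMENA. The LDHA window is chr11:18394313-18394612 (plus strand), the HK2 window chr2:74834920-74835219 (plus strand) and the BNIP3 window chr10:131981874-131982173 (minus strand).
LDHA promoter: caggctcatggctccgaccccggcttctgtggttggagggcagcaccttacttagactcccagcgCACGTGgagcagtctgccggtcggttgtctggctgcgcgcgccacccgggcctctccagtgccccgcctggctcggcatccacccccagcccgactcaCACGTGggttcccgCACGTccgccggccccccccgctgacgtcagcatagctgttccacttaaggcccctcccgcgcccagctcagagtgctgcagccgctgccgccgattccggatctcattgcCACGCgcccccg
HK2 promoter: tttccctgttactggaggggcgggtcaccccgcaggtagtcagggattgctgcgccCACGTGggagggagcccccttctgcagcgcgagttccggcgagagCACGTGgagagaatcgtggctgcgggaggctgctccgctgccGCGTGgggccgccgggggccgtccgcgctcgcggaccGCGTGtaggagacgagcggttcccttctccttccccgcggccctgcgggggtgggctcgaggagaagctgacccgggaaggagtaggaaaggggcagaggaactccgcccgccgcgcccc
BNIP3 promoter: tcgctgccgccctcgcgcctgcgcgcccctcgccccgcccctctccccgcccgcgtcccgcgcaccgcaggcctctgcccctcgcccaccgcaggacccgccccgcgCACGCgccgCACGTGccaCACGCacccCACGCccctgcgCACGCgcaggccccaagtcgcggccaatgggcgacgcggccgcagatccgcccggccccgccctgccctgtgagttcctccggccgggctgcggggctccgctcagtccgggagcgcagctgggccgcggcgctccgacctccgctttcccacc

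Genes with and without ACGTG were counted apart. Of the 19 tested genes with ACGTG in a window, 13 fell and 2 rose in siMENA (median log2 -0.23). Of the 13 tested genes whose windows lacked it, 8 fell and 0 rose (median -0.34), PGAM1 and SLC2A1 among them. In siMENA11a the genes with ACGTG split into 6 higher and 4 lower (median 0.01), and those without it into 3 higher and 5 lower (median -0.02). The 5 tested genes with no window, SLC2A3, SLC16A1, VEGFA, BNIP3L and NDRG1, are in neither set. All 5 rose in siMENA11a (median 0.39), while 1 rose and 4 fell in siMENA (median -0.47). Of all tested genes, 23.7% were called higher and 25.8% lower in siMENA against control. In siMENA11a against control these shares were 27.9% and 27.7%. The 1 window of PGAM1 in the table, chr10:97427568-97427867, held 0 cores and lies inside the gene as GENCODE 29 draws it (chr10:97426160-97433441), so it does not cover the upstream start. A match is a description of letters and not a site of binding.

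Isozyme shares do not depend on how a library was scaled, because both genes are read in the same library. SLC2A3 made up 50.6% ± 1.51 of the summed TPM of SLC2A1 and SLC2A3 in siMENA11a, 43.7% ± 1.28 in siMENA and 37.1% ± 1.61 in control (SD, n = 3 each). HK2 made up 37.9% ± 1.22 of HK1 and HK2 in siMENA11a, 33.9% ± 0.625 in siMENA and 26.7% ± 2.65 in control. LDHB made up 32.3% ± 0.178 of LDHA and LDHB in siMENA11a, 30.8% ± 0.972 in siMENA and 26.0% ± 0.996 in control. In all 3 shares both knockdowns lay above control with no overlap, by 13.5, 11.2 and 6.26 percentage points in siMENA11a and by 6.63, 7.16 and 4.81 points in siMENA. SLC16A3 made up 40.5% ± 2.11 of the lactate carrier pair in siMENA11a, 37.2% ± 2.79 in siMENA and 49.6% ± 1.64 in control. P4HA2 made up 38.5% ± 0.627 of P4HA1 and P4HA2 in siMENA11a, 42.9% ± 0.467 in siMENA and 48.2% ± 0.717 in control. These shares lay below control in both knockdowns, with no overlap. BNIP3L made up 38.9% ± 1.00 of BNIP3 and BNIP3L in siMENA11a, 34.9% ± 0.593 in siMENA and 39.4% ± 0.505 in control. PFKFB4 made up 7.56% ± 0.167 of PFKFB3 and PFKFB4 in siMENA11a, 10.2% ± 0.502 in siMENA and 8.78% ± 0.920 in control.

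Of 13 such shares, 9 did not overlap in siMENA11a against control, 11 in siMENA against control and 11 in siMENA11a against siMENA. The levels of 62.9%, 57.6% and 65.1% of all tested genes did not overlap in these comparisons. Those are scaled levels of single genes, an unlike measure, and shares of other gene pairs were not computed. The PFKP, PFKL and PFKM shares add up to the whole of their trio, so they are not separate counts. The two-sided exact permutation test cannot go below 0.10 with 3 libraries against 3. Each non-overlapping share had that p of 0.1 (0.126 adjusted over 39 tests), so no share passed a threshold of 0.05.

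**Figure D5:**
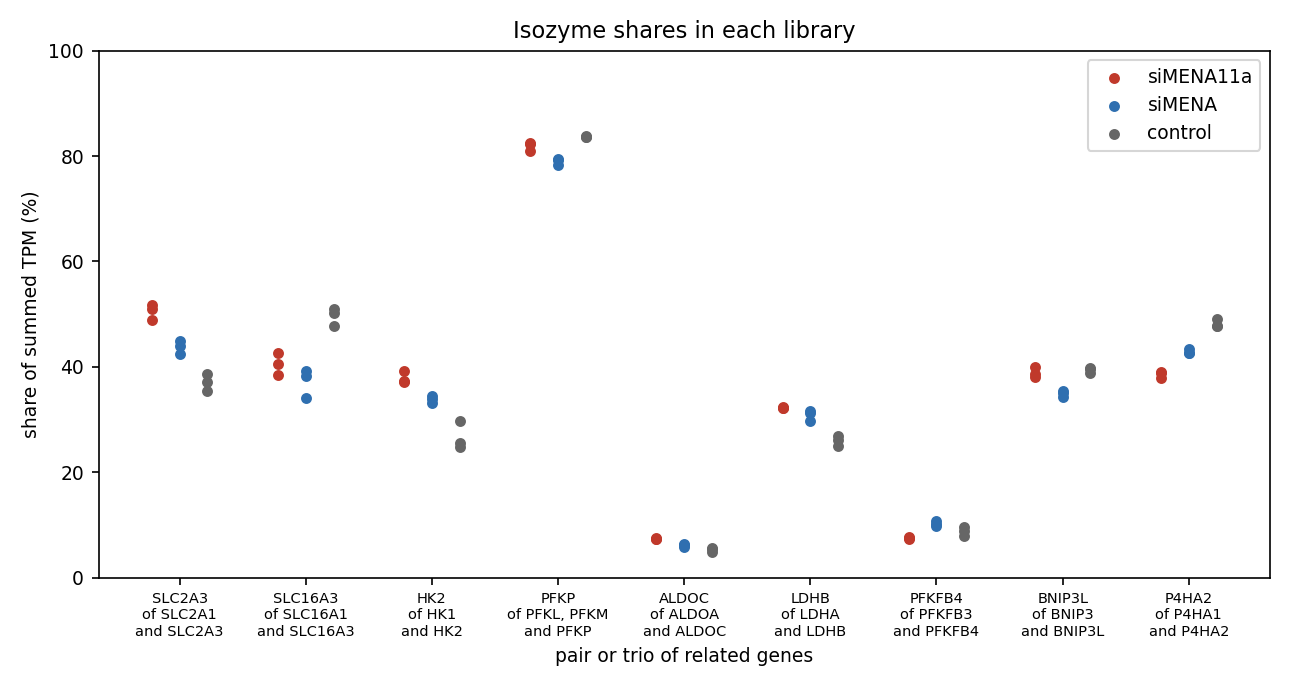
Points are the share (%) of 1 gene in the summed TPM of its pair or trio in each of the 9 libraries, for 9 of the 13 shares. The SLC2A3, HK2 and LDHB shares lie above control in both knockdowns and the SLC16A3 and P4HA2 shares below it, while the BNIP3L share is below control in siMENA.

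A wider list of 90 genes of glucose use and hypoxia, none of them among the 39, had 73 tested members. In siMENA11a 30 rose and 23 fell (median log2 0.06), in siMENA 13 rose and 33 fell (median -0.10), and in siMENA11a against siMENA 39 were higher and 20 lower (median 0.14). Of all tested genes, 27.9% were called higher and 27.7% lower in siMENA11a against control, 23.7% and 25.8% in siMENA against control, and 29.5% and 29.2% in siMENA11a against siMENA. The largest fall in siMENA11a was VHL, which marks hydroxylated HIF for destruction, at 5.20, 5.84 and 6.26 scaled TPM in siMENA11a, 16.0, 16.8 and 16.2 in siMENA and 13.2, 13.5 and 13.3 in control. VHL fell in siMENA11a (log2 -1.15 ± 0.060, limma adjusted p = 4.94e-07), with all siMENA11a libraries below all others. In siMENA against control VHL rose (0.28 ± 0.060, limma adjusted p = 0.00344). SLC2A6, a glucose transporter relative (-1.10), and BPGM, which makes bisphosphoglycerate (-0.66), followed VHL among the falls in siMENA11a. Whether calls of this wider list were stable is not given here. The largest rises in siMENA11a were ARNT2, a partner subunit for HIF alpha proteins (0.94), HKDC1, a hexokinase relative (0.73), and INSIG2, a sterol sensing protein gene (0.65). ARNT2 was among the largest falls in siMENA. It averaged 6.45 ± 0.251 in siMENA11a, 1.14 ± 0.160 in siMENA and 3.12 ± 0.208 in control, and the knockdowns differed by 2.09 ± 0.087 on the log2 scale (adjusted p = 8.85e-08).

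In siMENA the largest falls of that list were STC2, a secreted glycoprotein hormone gene (log2 -1.23), ARNT2 (-1.14) and AK4, a mitochondrial adenylate kinase gene (-1.12). The largest rises there were PDK4, another pyruvate dehydrogenase kinase (1.12), MPC1, a subunit of the mitochondrial pyruvate carrier (0.79), and CITED2, a competitor of HIF for its coactivator (0.68). PDK4 averaged 2.84 ± 0.112 in siMENA11a, 4.45 ± 0.557 in siMENA and 1.78 ± 0.252 in control, so it stood low in every group. Set against siMENA, siMENA11a was highest for ARNT2 (2.09), AK4 (1.42) and HKDC1 (1.15), and lowest for VHL (-1.43), SLC2A6 (-0.88) and FAM162A, a HIF-responsive mitochondrial protein gene (-0.66).

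An siRNA can also lower mRNAs that match its seed, so the 3' UTRs of GENCODE 29 were read for 6 words of 7 bases. The words had been picked on these same libraries, as those whose carriers fell most among all genes, so counts of carriers among lower genes are no independent evidence. CAAGGAA and CCAAGGA, both inside the ENAH exon shown above, stood in 7 of the 37 tested genes (18.9%), against 26.6% of all 11319 tested genes with a 3' UTR. Of the 9 genes lower in siMENA11a 3 carried one, ADM, ALDOA and EGLN1, against 34.0% of all lower genes. Of the other carriers, HK2 rose in siMENA11a (log2 0.54), and PFKFB4, PDK1 and MXI1 were not called. HIF1A, LDHA and ENO1 carried neither. For siMENA, the word CAGAATA with its overlapping neighbour AGAATAA, or the word CAGCGTA with its neighbour AGCGTAA, stood in 9 of the 37 (24.3%), against 30.8% of all genes. Of the 25 genes lower in siMENA 7 (28.0%) carried one, against 41.4% of all lower genes.

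The 7 lower carriers in siMENA were SLC2A3, HK1, PFKFB3, PGAM1, PDK1, BNIP3 and BNIP3L. SLC2A1, ENO1, PKM, LDHA and VEGFA, also lower, carried none. Of the other carriers, MXI1 was called higher in siMENA (log2 0.49, not stable) and CA12 was not called (0.34). The sites in PGAM1, PFKFB3, BNIP3 and SLC2A3 are shown with the word in capitals, as examples among the carriers whose falls in siMENA are stable calls. They lie at chr10:97432712-97432732 (plus strand), chr10:6234625-6234645 (plus strand), chr10:131967388-131967408 (minus strand) and chr12:7920800-7920820 (minus strand) of GRCh38. The siRNA sequences are not in the labels, and the part of seed matches in these values was not tested.
PGAM1 site: atctagtCAGAATAgcagttc
PFKFB3 site: gtctcatCAGAATAtgtgggt
BNIP3 site: ttaacttCAGAATAgtctgag
SLC2A3 site: ttttttaAGCGTAAttttgcc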

How the data were processed

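Stranded total RNA libraries were prepared after ribosomal depletion, 3 for each of 3 siRNA groups, per the labels' protocols. The authors deposited gene-level TPM in 1 table of 29972 genes by 9 libraries, each summing to the same total within rounding. The deposited table is named after RSEM, whereas the submitters' processing notes name kallisto and GRCh37 with no version, and neither the aligner nor strand use is given in the sources used here. Depth cannot be read from TPM, so counting error is unknown. The table had 9 value columns, all used, and 0 others.

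Values were divided by median-of-ratios size factors (12341 genes) and limma 3.58.1 (R 4.3.3) tested log2(scaled TPM + 0.5) over all 9 libraries, with 3 group means, a mean trend and no block. The filter kept genes averaging 0.5 scaled TPM or more, and p-values were adjusted by Benjamini and Hochberg over 13498 genes. The fit was tested on simulated data. Isozyme shares were compared by exact permutation. Sequences came from GENCODE 29 and RefSeq. The 39 genes, the wider list and the 3' UTR words were chosen with earlier results of these data known. All 39 genes are described. Of the wider list, the 3 largest called rises and the 3 largest called falls of each comparison are named, among genes averaging at least 1 scaled TPM. The alternatives were other scalings, pseudocounts, filters and limma settings, a replicate block, leaving out each library and fitting only the 2 groups compared.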

Additional observations from a re-analysis of the deposited data

How the results depend on the processing

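Total counts of called genes stayed within 1.5 times those reported under each alternative, but the counts in each direction did not. In TPM as deposited, called genes were 1965 higher (3770 as reported) in siMENA11a against control, 2300 lower (3478) in siMENA against control, and 2030 higher (3984) and 6321 lower (3937) in siMENA11a against siMENA. Rescaled without small RNAs, siMENA against control had 5118 higher (3196) and 2247 lower (3478). Of the 37, higher genes in siMENA against control (3 as reported) were 5 under each of the 3 other scalings and 1 with no filter or without siMENA library 1 or 3. Lower genes in siMENA11a against siMENA (3 as reported) were 10 in TPM as deposited, 5 under the other 2 scalings and 1 with the filter at 5. Calls also ended with no filter for PFKL and VEGFA in siMENA11a against control, GAPDH, MXI1, NDRG1 and PFKM in siMENA against control and GAPDH in siMENA11a against siMENA. Without a mean trend they ended for ADM, PFKL and VEGFA, for ADM, NDRG1 and PFKM, and for LDHB, in the same order of comparisons. Fitting only the 2 groups compared ended the calls of ADM and NDRG1 in siMENA against control and of LDHB in siMENA11a against siMENA. With 1 library left out, 17 to 22 of the 37 were called in siMENA11a against control, 23 to 27 in siMENA against control and 28 to 30 in siMENA11a against siMENA. Of 626 recomputed fold changes per comparison, 541, 548 and 584 kept their direction and their side of the threshold in the same order of comparisons. Changes of sign are listed as log2 fold changes, and their cause was not tested. In TPM as deposited they were, for siMENA11a against control, ENO2 (-0.12), GAPDH (-0.12), LDHB (-0.12), PDK1 (-0.051), PFKM (-0.092), PGK1 (-0.040), PKM (-0.057) and SLC2A1 (-0.047), for siMENA against control ALDOC (0.063), ANKRD37 (0.065), EGLN1 (0.0060), HIF1A (0.045) and PFKL (0.0082), and for siMENA11a against siMENA GAPDH (-0.033), HK1 (-0.030), LDHA (-0.21), LDHB (-0.11) and SLC16A1 (-0.094). On TPM rescaled without small and structured RNAs they were P4HA2 (0.011), PFKFB4 (0.061) and PFKP (0.022) for siMENA11a against control, ADM (0.0085), ALDOC (0.099), ANKRD37 (0.094), EGLN1 (0.041), HIF1A (0.081), KDM3A (0.025), LDHB (0.021) and PFKL (0.044) for siMENA against control, and LDHA (-0.024) for siMENA11a against siMENA. Under quantile normalisation they were ENO2 (-0.0031), GAPDH (-0.42) and PFKP (0.051) for siMENA11a against control, ALDOC (0.061), GPI (0.019), HIF1A (0.096) and LDHB (0.12) for siMENA against control, and GAPDH (-0.088) and LDHA (-0.19) for siMENA11a against siMENA. With 1 library left out, signs differed between libraries for ENO2 (-0.12 to 0.17), GAPDH (-0.013 to 0.045), LDHB (-0.0035 to 0.036), PFKM (-0.0085 to 0.096) and PFKFB4 (-0.092 to 0.037) in siMENA11a against control. They also differed for ANKRD37 (-0.22 to 0.18) and ALDOC (-0.083 to 0.038) in siMENA against control, and for LDHA (-0.027 to 0.032), ADM (-0.029 to 0.038) and ALDOA (-0.039 to 0.00031) in siMENA11a against siMENA. The difference in EGLN3 share between siMENA11a and siMENA ran from -0.15 to 0.53 percentage points.

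Same-numbered libraries of different groups did not deviate together (correlations of deviations -0.065 to 0.058), and 3 of 9 libraries correlated best with their own number. No pairing by number was detected, which does not exclude that same-numbered libraries were made side by side. A replicate block gave 7309 called genes in siMENA11a against control, 6386 in siMENA against control and 7732 in siMENA11a against siMENA, and 22, 28 and 30 of the 37. TPM holds no depth, so the precision of low genes such as CA12, MXI1 and ANKRD37 rests on the spread of 3 libraries.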
